A study of Mus musculus with 6 samples.

Results

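The genes that encode collagen and laminin chains were examined in the P5 mouse cortex, and their levels were set side by side in fibroblasts, pericytes, endothelial cells and glia. Members were all genes whose symbols have the form of a collagen alpha chain (Col, a number, a, a number) or of a laminin chain (Lama, Lamb or Lamc and a number). This gave 55 of the 17418 genes in the table, 44 of collagens and 11 of laminins. All 55 had at least 1 UMI, and 42 reached a mean of 20 CPM in at least 1 of the 8 subtypes compared, which were fibroblasts, pericytes, endothelial cells, Astrocytes_1, Astrocytes_2, OPCs, oligodendrocytes and microglia. CPM express a gene's UMIs relative to all UMIs of that mouse and subtype. UMIs mark the 3′ ends of transcripts, so CPM were not divided by gene length. Values of single mice are given in the order of their numbers, and only for mice with at least 10 cells of a subtype. A fold between subtypes is the ratio of the mean CPM of the mice that have both.

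The cells came from the cortex of 3 WT mice (FVB.129P2-Pde6b+ Tyrc-ch/AntJ) and 3 Fmr1-KO mice (FVB.129P2-Pde6b+ Tyrc-ch Fmr1tm1Cgr/J) on postnatal day 5. Both sexes were used, and the Pde6b+ and Tyrc-ch alleles are carried by both groups. The knockout is constitutive, so every cell type of the Fmr1-KO mice carries it. Tissue was dissociated with papain and single cells were enclosed in droplets with barcoded beads (InDrop), whose primers label the transcripts they catch with a unique molecular identifier (UMI).

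Collagens are proteins of 3 chains wound into a triple helix. The fibrillar types I, III and V form the fibres of connective tissue, whereas collagen IV forms the sheet-like network of basement membranes, the thin matrix that surrounds vessels and borders the brain surface. Laminins are made of an alpha, a beta and a gamma chain and form the other network of basement membranes, which cells hold through integrins and dystroglycan. In the brain, endothelial cells and pericytes share the vascular basement membrane, the endfeet of astrocytes contact it from the tissue side, and fibroblasts lie in the meninges and around larger vessels.

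The counts covered 18393 cells of 17 libraries, with 8070039 to 20677233 UMIs per mouse and a median of 1688 to 4897 UMIs per cell. The 1113 cells that the authors marked as doublets were left out, and subtypes are those of the authors' annotation. WT 1, Fmr1-KO 1 and Fmr1-KO 2 were prepared with bead version 2, and WT 2, WT 3 and Fmr1-KO 3 with version 3.8, which is also the split of the 2 collection batches, so bead and batch cannot be told apart. Fmr1, the targeted gene, was at 68.4 to 74.1 CPM in the WT and 16.1 to 19.9 CPM in the Fmr1-KO mice. These tags lie at the 3′ end, outside the disrupted exon, so that the level checks the transcript and not the disruption. Among libraries of the same mouse, 3307 pairs of cells carried the same barcode and 93.3% of them had the same subtype, against 12.9% to 24.2% of all pairs of cells within a mouse. These pairs involved 24.8% of the cells, and 468 further pairs lay between mice. Keeping 1 cell per barcode and mouse left 14836 cells other than doublets, and with it the members' total share of UMIs per subtype, the counts of members higher in every mouse, and the calls and medians by genotype stayed within the margin that counted as unchanged. Fibroblasts were few: 141 cells, and only WT 2, WT 3 and Fmr1-KO 2 had 10 or more of them.

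The labels of the subtypes were compared with marker genes that are neither collagens nor laminins. All 8 fibroblast markers were detected in fibroblasts, where they summed to 16899 to 28316 CPM per mouse. The 7 pericyte markers summed to 10375 to 14739 CPM in pericytes, and the 7 endothelial markers to 11073 to 14186 CPM in endothelial cells. The glial lists summed to 15386 to 20136 CPM for astrocytes in Astrocytes_1, 6017 to 7278 CPM for OPCs, 8200 to 24503 CPM for oligodendrocytes and 10566 to 12305 CPM for microglia in their own subtypes. In pericytes the fibroblast list still summed to 3836 to 8621 CPM (7 of 8 genes with a UMI), most of it from Igf2, and the smooth muscle list to 87.6 to 2997 CPM, the highest in WT 3. In fibroblasts the astrocyte list summed to 2035 to 2516 CPM and the pericyte list to 916 to 2186 CPM. In endothelial cells the pericyte list summed to 303 to 1469 CPM. The part of these in the levels below was not tested.

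Type IV collagen genes lie in pairs that are read in opposite directions from neighbouring starts. Col4a1 (chr8:11198423-11312826, minus strand) and Col4a2 (chr8:11312805-11449287, plus strand) are neighbours, and so are Col4a5 (chrX:141475385-141689234, plus strand) and Col4a6 (chrX:141165403-141474076, minus strand), in the GENCODE annotation of GRCm38. The windows from 250 bases before to 50 bases after the annotated start (RefSeq, GRCm38.p6) are shown because the first pair was high in fibroblasts, pericytes and endothelial cells, whereas Col4a5 was higher in astrocytes than in endothelial cells. Capitals mark CCAAT and GGGCGG, read on both strands (ATTGG and CCGCCC on the strand shown). The window of Col4a1 is chr8:11312777-11313076 on the minus strand, that of Col4a2 chr8:11312555-11312854 on the plus strand, that of Col4a5 chrX:141475169-141475468 on the plus strand and that of Col4a6 chrX:141474027-141474326 on the minus strand.
Col4a1: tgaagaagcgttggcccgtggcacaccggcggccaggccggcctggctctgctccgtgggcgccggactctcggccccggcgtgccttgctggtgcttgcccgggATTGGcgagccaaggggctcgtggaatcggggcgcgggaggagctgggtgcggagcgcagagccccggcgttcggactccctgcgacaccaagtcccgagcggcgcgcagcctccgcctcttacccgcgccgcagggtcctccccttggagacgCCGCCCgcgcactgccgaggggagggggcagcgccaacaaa
Col4a2: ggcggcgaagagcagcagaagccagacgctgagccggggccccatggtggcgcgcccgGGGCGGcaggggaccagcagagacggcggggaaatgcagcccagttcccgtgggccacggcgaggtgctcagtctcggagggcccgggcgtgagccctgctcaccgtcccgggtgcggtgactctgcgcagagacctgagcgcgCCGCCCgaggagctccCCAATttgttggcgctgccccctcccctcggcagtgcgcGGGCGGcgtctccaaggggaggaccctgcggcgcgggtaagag
Col4a5: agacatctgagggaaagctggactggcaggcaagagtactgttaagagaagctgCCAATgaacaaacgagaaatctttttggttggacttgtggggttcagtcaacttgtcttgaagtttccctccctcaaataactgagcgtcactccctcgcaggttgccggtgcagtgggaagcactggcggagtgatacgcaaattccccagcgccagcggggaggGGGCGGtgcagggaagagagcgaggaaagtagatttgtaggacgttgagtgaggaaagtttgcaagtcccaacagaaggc
Col4a6: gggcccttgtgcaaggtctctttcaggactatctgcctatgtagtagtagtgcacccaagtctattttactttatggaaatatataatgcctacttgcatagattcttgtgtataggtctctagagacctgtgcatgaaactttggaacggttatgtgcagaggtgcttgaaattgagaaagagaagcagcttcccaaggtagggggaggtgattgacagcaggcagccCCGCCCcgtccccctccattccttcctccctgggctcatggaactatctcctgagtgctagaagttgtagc

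The Col4a1 and Col4a2 windows shared 78 bases, the same letters on opposite strands, and their start sites were 21 bases apart. The Col4a5 and Col4a6 start sites were 1343 bases apart and their windows did not overlap. GC content was 74.0% for Col4a1 and 73.7% for Col4a2, and 52.7% for Col4a5 and 48.3% for Col4a6. CCAAT occurred once in each window except that of Col4a6, and GGGCGG occurred 3 times in that of Col4a2 and once in each of the others. TATAAA was in none of the 4 windows. Of all 32851 windows of this length, 37.4% held CCAAT, 35.7% GGGCGG and 13.6% TATAAA. Of the 44 windows of the 40 members with a window, 14, 26 and 5 held these motifs in the same order, which says only that the letters are there.

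Members made up the largest share of UMIs in fibroblasts, followed by pericytes and endothelial cells. The share was 3.15% in WT 2, 3.49% in WT 3 and 3.37% in Fmr1-KO 2 for fibroblasts, which averaged 3.34% ± 0.17 (SD, n = 3). In pericytes it was 1.5, 1.62 and 1.98% for WT and 1.7, 1.66 and 1.71% for Fmr1-KO, which averaged 1.69% ± 0.162 (SD, n = 6). Every one of the 3 mice with both subtypes had a higher share in fibroblasts than in pericytes. In endothelial cells the mean was 0.557% ± 0.0375 (SD, n = 6). Glia were lower, at 0.146% ± 0.034 (SD, n = 6) in oligodendrocytes, 0.0946% ± 0.00907 (SD, n = 6) in Astrocytes_2, 0.076% ± 0.00394 (SD, n = 6) in Astrocytes_1, 0.0655% ± 0.00349 (SD, n = 6) in OPCs and 0.0201% ± 0.00356 (SD, n = 6) in microglia. Excitatory neurons had 0.0459% ± 0.00789 (SD, n = 6). The subtypes were clustered by the authors on these same cells, so that differences between subtypes are given as descriptions without a p-value. Because subtypes differ in number, the order of the totals was another: 33.3% of all member UMIs came from pericytes, 24% from endothelial cells, 17.4% from Astrocytes_1 and 13.6% from fibroblasts.

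**Figure D1:**
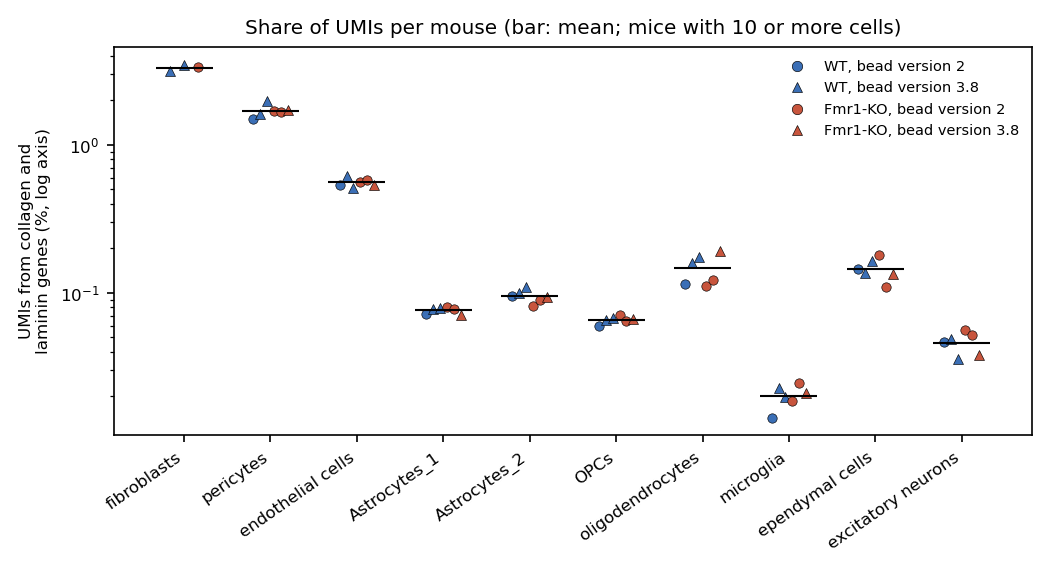
Percent of UMIs from collagen and laminin genes (log axis) by subtype, with a symbol for each mouse with 10 or more cells, coloured by genotype and shaped by bead version, and a bar at the mean. Fibroblasts, at a mean of 3.34%, and pericytes, at 1.69%, lie above all glia, and microglia are lowest at 0.0201%.

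The classes of collagen that made up these shares differed between the 3 subtypes. Fibrillar collagens took 1.8% ± 0.249 (SD, n = 3) of UMIs in fibroblasts, 0.199% ± 0.0425 (SD, n = 6) in pericytes and 0.011% ± 0.00414 (SD, n = 6) in endothelial cells. The 6 collagen IV chains took 0.731% ± 0.17 (SD, n = 3) in fibroblasts, 0.994% ± 0.102 (SD, n = 6) in pericytes and 0.371% ± 0.0300 (SD, n = 6) in endothelial cells. Laminins took 0.324% ± 0.0328 (SD, n = 3) in fibroblasts, 0.404% ± 0.0278 (SD, n = 6) in pericytes and 0.146% ± 0.00891 (SD, n = 6) in endothelial cells. Fibrillar collagens were thus highest in fibroblasts, and both networks of the basement membrane in pericytes. In oligodendrocytes the FACIT collagens, which attach to the surface of fibrils and lead there with Col9a3, took 0.105% ± 0.0332 (SD, n = 6).

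**Figure D2:**
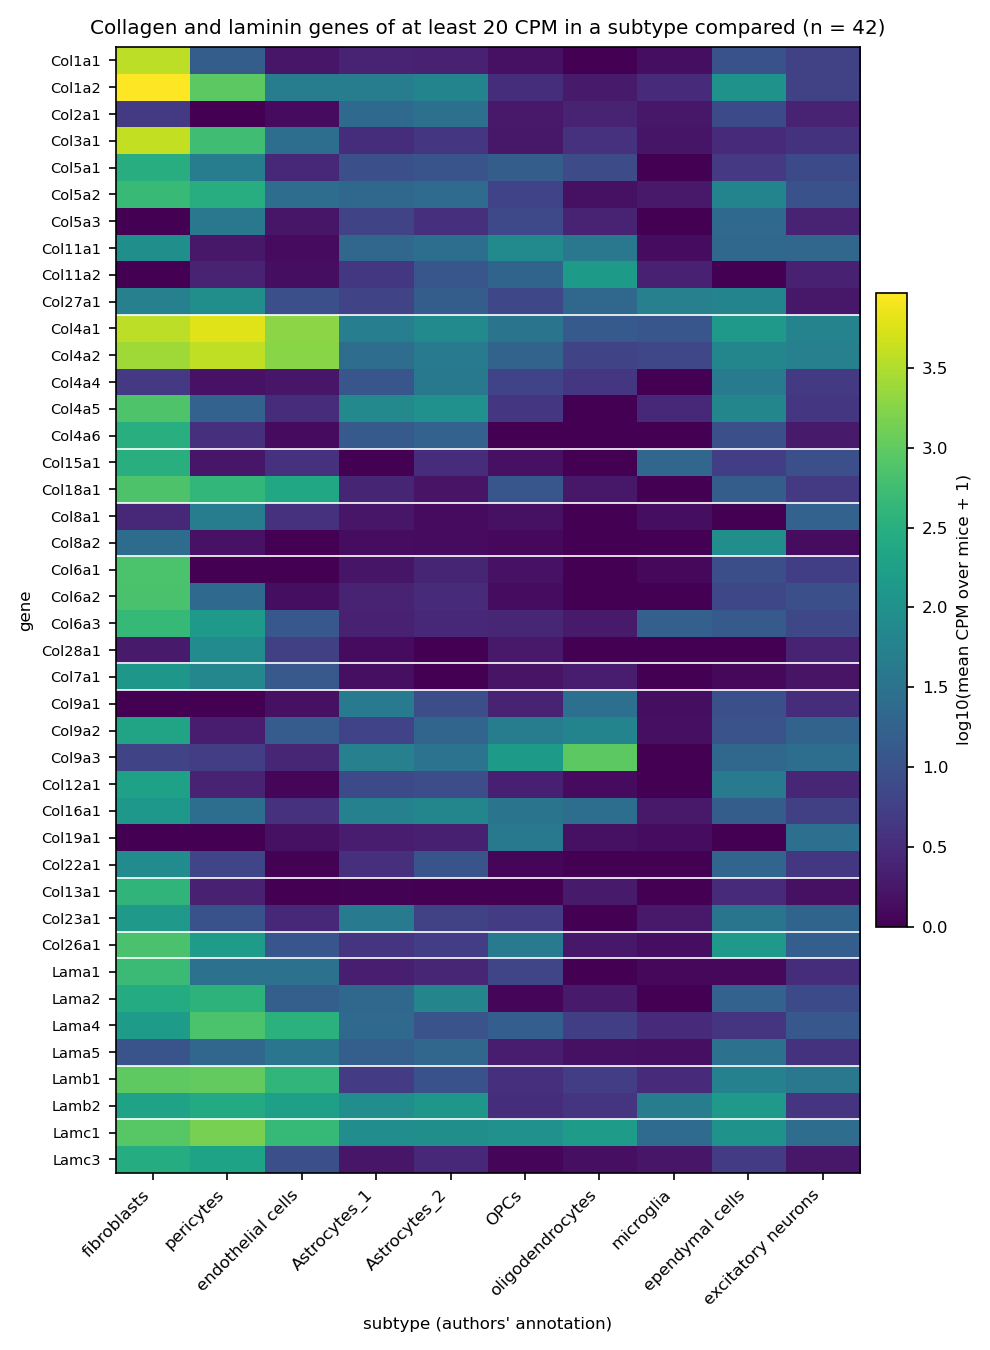
Mean over mice of the 42 members with at least 20 CPM in a subtype compared, coloured by log10(CPM + 1), with genes in rows, white lines between classes, and subtypes in columns. Col1a2 in fibroblasts and Col4a1 in pericytes are brightest, and the Col4a1, Col4a2, Lamb1 and Lamc1 rows are high in fibroblasts, pericytes and endothelial cells.

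Among fibrillar collagens, both chains of collagen I were higher in fibroblasts than in pericytes, Col1a1 by far more than Col1a2. Col1a2, which encodes the alpha 2 chain of collagen I, was at 8007 CPM in WT 2, 9179 CPM in WT 3 and 10738 CPM in Fmr1-KO 2 in fibroblasts. In pericytes it was at 755, 604 and 1349.5 CPM for WT and 1338, 888 and 684 CPM for Fmr1-KO. The groups did not overlap, and the mean in fibroblasts was 9308 ± 1369.8 CPM against 936 ± 329 CPM in pericytes. Col1a1, the alpha 1 chain that normally supplies 2 of the 3 chains of collagen I, was at 2898 CPM in WT 2, 3969 CPM in WT 3 and 4209 CPM in Fmr1-KO 2 in fibroblasts. In pericytes it was at 10.3, 22.7 and 7.65 CPM for WT and 9.56, 17.2 and 14.4 CPM for Fmr1-KO. Fibroblasts were 233-fold (128 to 519 within a mouse) above pericytes for Col1a1 and 9.83-fold (6.8 to 13.3 within a mouse) for Col1a2.

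The 2 chains of collagen I therefore stood in different proportion in the 2 subtypes. Col1a2 exceeded Col1a1 by 2.42 times in the pooled UMIs of fibroblasts (5159 and 2133 UMIs) and by 68.2 times in those of pericytes (2455 and 36 UMIs). Astrocytes_1 also had more of the alpha 2 chain, with Col1a2 at 46.3 ± 16.7 CPM (SD, n = 6) and Col1a1 at 1.52 ± 0.895 CPM (SD, n = 6). Col1a2 was at 4.99 ± 5.52 CPM (SD, n = 6) in excitatory neurons. The part of free RNA in these levels was not tested. Endothelial cells had 45.6 ± 18 CPM (SD, n = 6) for Col1a2.

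Col3a1 and Col5a2 were likewise higher in fibroblasts than in pericytes. Col3a1, which forms collagen III, was at 3569.7 CPM in WT 2, 4150.1 CPM in WT 3 and 4476 CPM in Fmr1-KO 2 in fibroblasts and at 437 to 800.2 CPM in pericytes, and fibroblasts were 6.39-fold (5.19 to 7.74 within a mouse) higher. Col5a2, a chain of the collagen V that takes part in starting collagen I fibrils, was at 493 ± 74.4 CPM (SD, n = 3) in fibroblasts and 294 ± 30.9 CPM (SD, n = 6) in pericytes. Col5a3, another chain of collagen V, went the other way in each of the 3 mice with both subtypes, with 0 UMIs in fibroblasts, which allows up to 5.38 CPM, and 38.3 ± 18.5 CPM (SD, n = 6) in pericytes. Col5a3 was named after its values were seen.

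Collagen IV was highest in pericytes. Col4a1, whose product forms a trimer with that of Col4a2 in nearly all basement membranes, was at 5306, 5645 and 6786 CPM for WT and 6088, 6225 and 6214 CPM for Fmr1-KO in pericytes. It was at 4094 CPM in WT 2, 4306 CPM in WT 3 and 2725 CPM in Fmr1-KO 2 in fibroblasts. In endothelial cells it was at 1753, 2081 and 1552 CPM for WT and 2078, 2088 and 1799 CPM for Fmr1-KO. Every pericyte value was above every value of the other 2 subtypes. Pericytes were 1.68-fold (1.38 to 2.28 within a mouse) above fibroblasts and 3.19-fold (2.71 to 4.37 within a mouse) above endothelial cells.

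Col4a2, the partner chain, was at 3128, 3902 and 4669.7 CPM for WT and 3474, 3711 and 4365 CPM for Fmr1-KO in pericytes. It was at 2800.1 CPM in WT 2, 3033 CPM in WT 3 and 1786 CPM in Fmr1-KO 2 in fibroblasts and at 1708 to 2070.2 CPM in endothelial cells. Pericytes were 2.14-fold (1.83 to 2.6 within a mouse) above endothelial cells and 1.61-fold (1.39 to 2.08 within a mouse) above fibroblasts. The excess of pericytes over endothelial cells was thus smaller for Col4a2 than for Col4a1.

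The ratio of Col4a1 to Col4a2 UMIs shows this within each mouse. In pericytes it was 1.7, 1.45 and 1.45 for WT and 1.75, 1.68 and 1.42 for Fmr1-KO. In endothelial cells it was 1.03, 1.01 and 0.865 for WT and 1.19, 1.2 and 1.01 for Fmr1-KO. Pericytes were higher in 6 of 6 mice, with a mean of 1.57 ± 0.149 (SD, n = 6) against 1.05 ± 0.124 (SD, n = 6). In fibroblasts the mean was 1.47 ± 0.0535 (SD, n = 3), within the range of pericytes. The 3 mice of bead version 2 had the 3 highest ratios in pericytes and in endothelial cells, and the part of the bead version in the ratio was not tested.

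**Figure D3:**
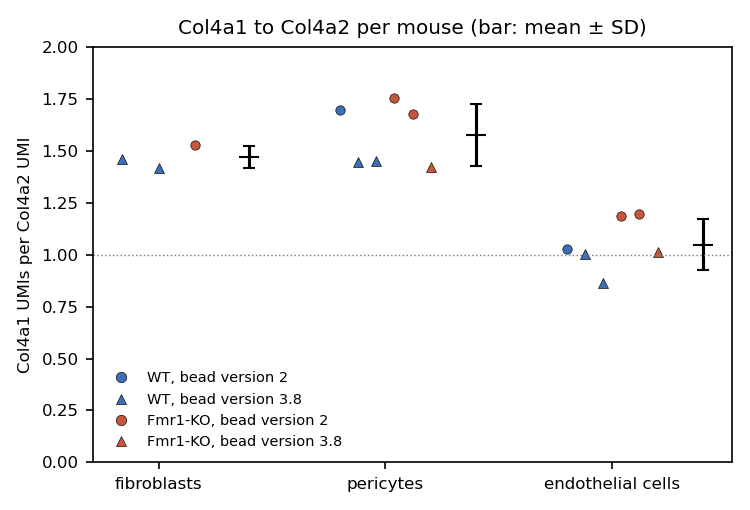
Col4a1 UMIs per Col4a2 UMI in each mouse (symbols, coloured by genotype and shaped by bead version) and their mean ± SD (bars) for fibroblasts, pericytes and endothelial cells. The dotted line marks a ratio of 1. The mean was 1.57 in pericytes and 1.05 in endothelial cells, and pericytes were the higher in all 6 mice.

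The other collagen IV chains, which replace the common pair in the basement membranes of certain tissues, had a different distribution. Col4a5 was at 966 CPM in WT 2, 714 CPM in WT 3 and 545 CPM in Fmr1-KO 2 in fibroblasts. In Astrocytes_1 it was at 80, 53.4 and 66.2 CPM for WT and 100.5, 86.2 and 51.4 CPM for Fmr1-KO. It was at 102 ± 20.3 CPM (SD, n = 6) in Astrocytes_2, 16.9 ± 10.9 CPM (SD, n = 6) in pericytes and 2.2 ± 1.25 CPM (SD, n = 6) in endothelial cells. Fibroblasts were 45.9-fold (31.7 to 74.4 within a mouse) above pericytes, and Astrocytes_1 were 33.1-fold above endothelial cells by their means. In excitatory neurons it was at 3.22 ± 2.09 CPM (SD, n = 6), so astrocytes were above that level.

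Col4a6, the neighbour of Col4a5, was at 317 ± 79.5 CPM (SD, n = 3) in fibroblasts, 2.51 ± 3.36 CPM (SD, n = 6) in pericytes, 0.288 ± 0.705 CPM (SD, n = 6) in endothelial cells and 12.3 ± 2.74 CPM (SD, n = 6) in Astrocytes_1. Both chains were thus lower in Astrocytes_1 than in fibroblasts. Col4a5 exceeded Col4a6 by 3.69 to 12.4 times per mouse in Astrocytes_1 and by 1.77 to 3.93 times in fibroblasts. In WT 2 this ratio was higher in fibroblasts (3.93) than in Astrocytes_1 (3.69). The 3 mice of bead version 2 had the 3 highest ratios in Astrocytes_1, and the part of the bead version was not tested. Col4a4 was at 39.2 ± 15.6 CPM (SD, n = 6) in Astrocytes_2 and at 3.78 ± 6.55 CPM (SD, n = 3) in fibroblasts. Col4a3 was at 9.48 ± 4.73 CPM (SD, n = 6) in endothelial cells, and 0 of its UMIs were in fibroblasts, a count that allows up to 5.38 CPM.

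Collagen VI, a microfibril that surrounds cells and is built of 3 different chains, was complete in fibroblasts. Col6a1 was at 639 CPM in WT 2, 672 CPM in WT 3 and 765 CPM in Fmr1-KO 2 in fibroblasts. Pericytes and endothelial cells had 0 UMIs of it. Over the 3 mice that also had fibroblasts, the 3 UMIs that a count of 0 allows correspond to 2.64 CPM in pericytes and 0.811 CPM in endothelial cells, for counting error only. Against that limit, and with the UMIs of these mice pooled, fibroblasts were at least 259-fold higher than pericytes and at least 844-fold higher than endothelial cells.

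Pericytes did have the other chains at lower levels. Col6a2 was at 666 ± 144 CPM (SD, n = 3) in fibroblasts, 21.4 ± 25.3 CPM (SD, n = 6) in pericytes and 0.398 ± 0.976 CPM (SD, n = 6) in endothelial cells. Col6a3 was at 451 ± 63.4 CPM (SD, n = 3) in fibroblasts, 139 ± 49.2 CPM (SD, n = 6) in pericytes and 11.1 ± 7.75 CPM (SD, n = 6) in endothelial cells. Astrocytes_1 had 0.651 ± 0.571 CPM (SD, n = 6) for Col6a1, 1.44 ± 0.89 CPM (SD, n = 6) for Col6a2 and 1.28 ± 0.922 CPM (SD, n = 6) for Col6a3. Col28a1, a gene related to collagen VI that was named after its values were seen, was at 73.4 to 87.3 CPM in pericytes, 0.945 ± 1.64 CPM (SD, n = 3) in fibroblasts and 4.63 ± 3.51 CPM (SD, n = 6) in endothelial cells.

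Col18a1, the basement membrane collagen from which endostatin is cut, was measured in all 3 subtypes. It was at 901 CPM in WT 2, 816 CPM in WT 3 and 417 CPM in Fmr1-KO 2 in fibroblasts. In pericytes it was at 339, 292 and 711 CPM for WT and 335, 424 and 409 CPM for Fmr1-KO. WT 3 stood above the other 5 mice in pericytes, and it was also the mouse with the highest smooth muscle markers there. Fmr1-KO 1 had the next highest sum of these markers, 1027 CPM against 2997 CPM in WT 3, with Col18a1 at 335 CPM. The part of smooth muscle cells in the Col18a1 level was not tested. In endothelial cells the mean was 228 ± 94.3 CPM (SD, n = 6). Its relative Col15a1 was at 315 ± 119.8 CPM (SD, n = 3) in fibroblasts and 0.765 ± 1.87 CPM (SD, n = 6) in pericytes.

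Fibroblasts also led for less common members. Col26a1 was at 669 ± 148 CPM (SD, n = 3) in fibroblasts and at 149 ± 27.6 CPM (SD, n = 6) in pericytes. Col13a1, a collagen that spans the cell membrane and was named after its values were seen, was at 392 ± 34.3 CPM (SD, n = 3) in fibroblasts and 1.28 ± 3.12 CPM (SD, n = 6) in pericytes.

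The highest laminin alpha chain was Lama1 in fibroblasts and Lama4 in both pericytes and endothelial cells. Lama1, an alpha chain of embryonic and meningeal basement membranes, was at 524 CPM in WT 2, 513 CPM in WT 3 and 487 CPM in Fmr1-KO 2 in fibroblasts. It was at 15.4 to 47.8 CPM in pericytes and 22.4 to 47.8 CPM in endothelial cells. Fibroblasts were 19.4-fold (16.8 to 26.9 within a mouse) above pericytes, without overlap.

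Lama4, an alpha chain of vessel walls, had the opposite order. It was at 591, 691 and 675 CPM for WT and 759.8, 727 and 701 CPM for Fmr1-KO in pericytes. In endothelial cells it was at 312, 378 and 387 CPM for WT and 334, 304 and 313 CPM for Fmr1-KO. It was at 131 CPM in WT 2, 113 CPM in WT 3 and 209 CPM in Fmr1-KO 2 in fibroblasts. Pericytes were 4.62-fold (3.48 to 5.95 within a mouse) above fibroblasts and 2.04-fold (1.74 to 2.4 within a mouse) above endothelial cells, and endothelial cells were 2.36-fold (1.45 to 3.41 within a mouse) above fibroblasts.

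Lama2, an alpha chain known from muscle and from the vessels of the brain, was shared by pericytes and fibroblasts. It was at 344, 282 and 415 CPM for WT and 411, 401 and 353 CPM for Fmr1-KO in pericytes. In fibroblasts it was at 311 CPM in WT 2, 317 CPM in WT 3 and 197 CPM in Fmr1-KO 2 and in endothelial cells at 14.7 ± 6.29 CPM (SD, n = 6). Pericytes were 25.1-fold (12.6 to 67.7 within a mouse) above endothelial cells, whereas the values of pericytes and fibroblasts overlapped. Astrocytes_2 had 62.2 ± 15.2 CPM (SD, n = 6) and Astrocytes_1 20.9 ± 3.43 CPM (SD, n = 6).

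Lama5, the other main alpha chain of vessels, was at 54, 20.7 and 23.2 CPM for WT and 35.4, 51.4 and 26.7 CPM for Fmr1-KO in endothelial cells. In pericytes it was at 0, 3.25 and 78 CPM for WT and 28.7, 5.73 and 0.849 CPM for Fmr1-KO. WT 3 was the highest of the 6 mice in pericytes and the only one above its own endothelial value. In fibroblasts the mean was 9.62 ± 12.1 CPM (SD, n = 3). Of the members that reached 20 CPM in either subtype, only Lama4 and Lama5 were higher in endothelial cells than in fibroblasts in each mouse with both.

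**Figure D4:**
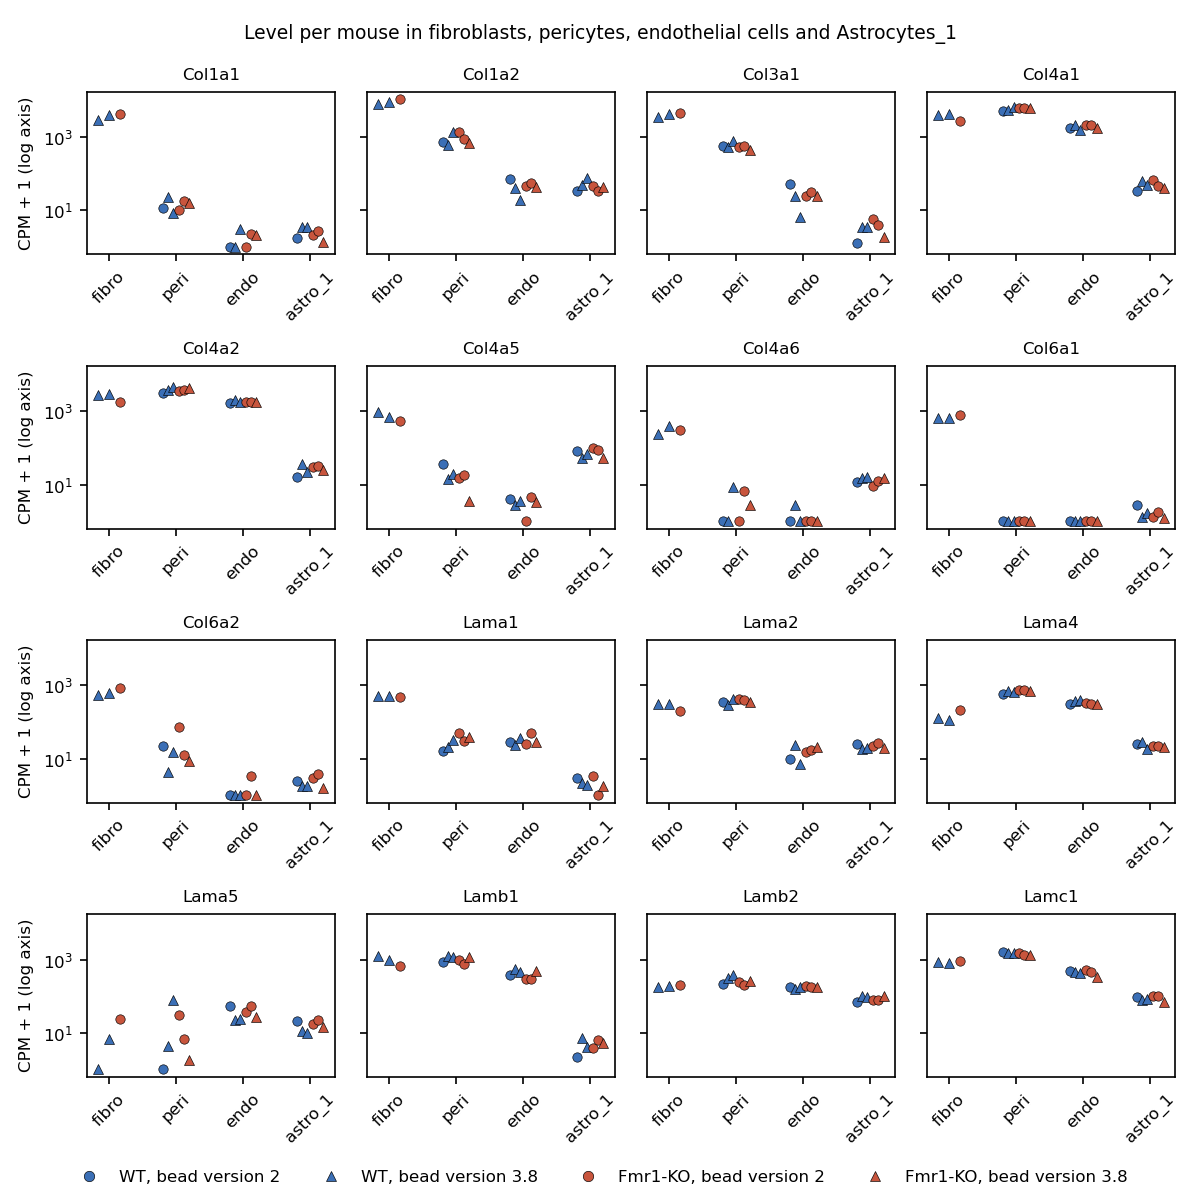
CPM + 1 on a log axis for 16 members in fibroblasts (fibro), pericytes (peri), endothelial cells (endo) and Astrocytes_1 (astro_1), with a symbol for each mouse, coloured by genotype and shaped by bead version. Col1a1 and Lama1 are highest in fibroblasts, Col4a1 and Lama4 in pericytes, and Col6a1 lies at 0 UMIs in pericytes and endothelial cells.

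The beta and gamma chains were shared more widely. Lamc1, the gamma chain of most laminins, was at 1441 ± 122 CPM (SD, n = 6) in pericytes, 861 ± 70 CPM (SD, n = 3) in fibroblasts and 449 ± 68.6 CPM (SD, n = 6) in endothelial cells. Lamb1, the common beta chain, was at 1019.9 ± 196 CPM (SD, n = 6) in pericytes, 958 ± 298 CPM (SD, n = 3) in fibroblasts and 405 ± 102 CPM (SD, n = 6) in endothelial cells. Pericytes were 3.21-fold (2.78 to 3.96 within a mouse) above endothelial cells for Lamc1 and 2.52-fold (2.27 to 3.29 within a mouse) for Lamb1. The difference between pericytes and fibroblasts in Lamb1 was smaller than the SD over the fibroblasts of the 3 mice.

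Lamb2, the beta chain of mature basement membranes, was at 265 ± 65.1 CPM (SD, n = 6) in pericytes, 190.0 ± 8.83 CPM (SD, n = 3) in fibroblasts and 175 ± 11.6 CPM (SD, n = 6) in endothelial cells. Lamc3, another gamma chain, was at 203 ± 42.6 CPM (SD, n = 6) in pericytes and 286 ± 73.2 CPM (SD, n = 3) in fibroblasts. It was at 8.31 ± 2.68 CPM (SD, n = 6) in endothelial cells, 24.4-fold (15.4 to 51.1 within a mouse) below pericytes.

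The direction within each mouse was then counted for every gene that reached 20 CPM in at least 1 subtype of a pair. Of 36 members compared, 21 were higher in fibroblasts than in pericytes in each of the 3 mice, against 20.8% of all genes. Another 7 (Col4a1, Col4a2, Col5a3, Col8a1, Col28a1, Lama4 and Lamc1) were higher in pericytes in each, against 25.7% of all genes. Fibroblasts were above endothelial cells for 30 of 33 members (25% of all genes), and endothelial cells above fibroblasts for 2 (27.8% of all genes). Pericytes were above endothelial cells in all 6 mice for 21 of 24 members (23.2% of all genes). The converse held for 0 members and for 18.9% of all genes.

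The same count set the 3 subtypes against Astrocytes_1, the largest class of astrocytes. Fibroblasts were higher for 31 of 34 members (25.1% of all genes), and Astrocytes_1 were higher for Col9a1 and Col9a3 (32.5% of all genes). Pericytes were higher for 21 of 28 members (26.7% of all genes), and Astrocytes_1 for 5, which were Col2a1, Col4a5, Col9a1, Col9a3 and Col23a1 (27.6% of all genes). In Astrocytes_1, Col2a1, the fibrillar collagen of cartilage, was at 21.4 ± 4.87 CPM (SD, n = 6), Col9a1 at 43.1 ± 2.18 CPM (SD, n = 6) and the transmembrane Col23a1 at 41.2 ± 12.3 CPM (SD, n = 6). Endothelial cells were higher for 10 of 19 members (29.9% of all genes). Astrocytes_1 were higher than endothelial cells for 6, the same 5 and Col16a1 (35.2% of all genes). Counts against fibroblasts rest on 3 mice and the others on 6. Genes named here that the naming rule does not cover were chosen after their values were seen.

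Glia had fewer members at high levels. In Astrocytes_1, the highest were Lamc1 at 86.4 ± 11.7 CPM (SD, n = 6), Lamb2 at 85.9 ± 12.6 CPM (SD, n = 6), Col4a5, Col16a1 at 55.4 ± 4.41 CPM (SD, n = 6) and Col9a3 at 53.4 ± 13.8 CPM (SD, n = 6). Col16a1 and Col9a3 encode FACIT collagens. Lamb2 was at 3.16 ± 2.9 CPM (SD, n = 6) and Lamc1 at 25.6 ± 9.09 CPM (SD, n = 6) in excitatory neurons. Col4a1 was at 48.8 ± 12.7 CPM in Astrocytes_1 and 58.5 ± 17 CPM in excitatory neurons (n = 6 each). Astrocytes_1 were thus not above a cell type outside the vessel wall, and the source of this RNA was not tested. Col4a1 was at 10.6 ± 3.92 CPM (SD, n = 6) in microglia and 12.5 ± 12.1 CPM (SD, n = 6) in oligodendrocytes. Lamb1 was lower in Astrocytes_1, at 3.82 ± 1.84 CPM, than in excitatory neurons, at 38.3 ± 8.79 CPM (n = 6 each).

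The share of cells with a UMI gave the same picture of Col4a1 when each cell was thinned to 700 UMIs. Before thinning it was 98.9% of pericytes, 92.3% of endothelial cells, 15.3% of Astrocytes_1 and 11.2% of excitatory neurons, whose median depths were 2694, 3687, 3755 and 1274 UMIs. After thinning it was 95.5%, 65.1%, 3.36% and 3.91% in the same order. Thinning left out 0 pericytes, 12 endothelial cells, 6 Astrocytes_1 and 13 excitatory neurons. For Lamb2 the thinned share was 5.94% in Astrocytes_1 and 0.559% in excitatory neurons.

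Astrocytes_2 had a similar set. Lamb2 was at 127 ± 42 CPM (SD, n = 6), Col4a5 at 102 ± 20.3 CPM, Lamc1 at 94.7 ± 13.1 CPM, Col4a1 at 78.2 ± 23.9 CPM and Col16a1 at 65 ± 22.1 CPM. The pericyte marker list summed to 92.2 to 302 CPM per mouse in Astrocytes_2 and 65.7 to 145 CPM in Astrocytes_1. Its part in the Col4a1 levels was not tested. The 5 highest members of Astrocytes_1 and Astrocytes_2 had Lamc1, Lamb2, Col4a5 and Col16a1 in common.

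Oligodendrocytes and OPCs had chains of collagens IX and XI, which are best known from cartilage, among their 5 highest members. Col9a3, a chain of collagen IX, was at 592, 1033 and 1208 CPM for WT and 578, 707 and 1384 CPM for Fmr1-KO in oligodendrocytes. In OPCs it was at 90.7, 177 and 179 CPM for WT and 104, 125 and 182 CPM for Fmr1-KO. In both subtypes every mouse of bead version 3.8 was above every mouse of version 2. The part of the bead version in Col9a3 was not tested. Oligodendrocytes were above OPCs in each mouse, and in Astrocytes_1 the mean was 53.4 ± 13.8 CPM. Oligodendrocytes further had Lamc1 at 155 ± 49.9 CPM (SD, n = 6), Col11a2 at 142 ± 20.4 CPM (SD, n = 6), Col9a2 at 61.1 ± 19.2 CPM (SD, n = 6) and Col11a1 at 37.2 ± 15.2 CPM (SD, n = 6). These chains were also measured elsewhere, with Col9a1 at 43.1 ± 2.18 CPM (SD, n = 6) in Astrocytes_1 and Col9a2 at 206 ± 223 CPM (SD, n = 3) in fibroblasts.

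OPCs, the precursors of oligodendrocytes, had Lamc1 at 102 ± 9.36 CPM (SD, n = 6), Col11a1 at 76.4 ± 21.4 CPM (SD, n = 6), Col9a2 at 47.1 ± 8.52 CPM (SD, n = 6) and Col26a1 at 41 ± 5.14 CPM (SD, n = 6). Col11a1 was thus higher in OPCs than in oligodendrocytes, and Col11a2 lower, with 18.4 ± 4.04 CPM (SD, n = 6) in OPCs. Microglia, the macrophages of the brain, had Col27a1 at 53.1 ± 11 CPM (SD, n = 6) and Lamb2 at 47.8 ± 12.7 CPM (SD, n = 6) as their highest members. Lamc1 was at 23.3 ± 8.77 CPM, Col15a1 at 19.7 ± 9.07 CPM and Col6a3 at 15.7 ± 16.2 CPM (n = 6 each).

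Among pericytes the authors' clustering had separated a cluster of 691 cells, cluster 2, from a cluster of 199 cells, cluster 3. Cluster 2 had a median of 3224 UMIs per cell and cluster 3 of 1075. Of 24 members compared, Col4a2 and Col28a1 were higher in cluster 2 in all 6 mice, against 5.3% of all genes. The converse was found for 0 members and 0.696% of all genes. Depth differed with the cluster, and its part in these 2 members was not tested.

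The genotypes were compared within each subtype to ask whether loss of Fmr1 goes with a change in matrix genes. No member was called changed in any of the 6 subtypes in which members could be tested. Only genes detected in 15% or more of a subtype's cells were tested, which left 7 members in endothelial cells, in pericytes 15, in Astrocytes_1 7, in Astrocytes_2 5, in OPCs 3, in oligodendrocytes 4 and in microglia 0. A call required an FDR (Benjamini-Hochberg) under 0.01 and the minimum fold given in the study's methods, in edgeR's quasi-likelihood test over mice with bead version as covariate. Over all genes tested, this held for 0% in endothelial cells, 0% in pericytes, 0.0208% in Astrocytes_1, 0% in Astrocytes_2, 0.0245% in OPCs and 0.0423% in oligodendrocytes. The gene called in Astrocytes_1 and in OPCs was Fmr1 itself. In the other subtypes Fmr1 was detected in too few cells to be tested. DESeq2 and the same test at an FDR under 0.05 without a fold minimum also called 0 members.

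At an unadjusted p under 0.05, 1 member of 7 was found in endothelial cells, where 11% of all genes tested passed that level. In the other subtypes it was 0 members, against 3.29% of all genes in pericytes, 4.72% in Astrocytes_1, 4.26% in Astrocytes_2, 4.24% in OPCs and 4.4% in oligodendrocytes. The member was Col18a1. In endothelial cells it was at 192, 221 and 127 CPM for WT and 209, 408 and 213 CPM for Fmr1-KO. The groups overlapped, and Fmr1-KO 2 was the highest. The log2 fold change of Fmr1-KO over WT was 0.57 ± 0.24 (SE), with FDR = 0.395 in edgeR. It was 0.68 within bead version 2 and 0.29 within version 3.8, and 0.34 to 0.77 when each mouse was left out in turn.

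The genes that lead the vascular basement membrane did not pass the unadjusted level. In pericytes the log2 fold change was 0.10 ± 0.13 (SE) for Col4a1, 0.10 ± 0.13 for Col4a2, 0.01 ± 0.14 for Lamb1, -0.21 ± 0.13 for Lamc1 and 0.16 ± 0.15 for Lama4. In endothelial cells it was 0.18 ± 0.16 for Col4a1, 0.01 ± 0.15 for Col4a2, -0.19 ± 0.15 for Lamc1 and -0.09 ± 0.15 for Lama4. Col3a1 had the smallest p among members in pericytes, with a log2 fold change of -0.35 ± 0.20 (SE) and FDR = 0.996 in edgeR. A p that misses the threshold does not show that levels were equal, and the standard errors of members, with medians of 0.15 in endothelial cells and 0.20 in pericytes, set the size of change that could be seen.

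The median log2 fold change of the members tested was 0.01 in endothelial cells, -0.04 in pericytes, 0.02 in Astrocytes_1, -0.15 in Astrocytes_2, 0.18 in OPCs and 0.16 in oligodendrocytes. The sign of this median turned with the processing in each of the 6 subtypes. With cells thinned to 700 UMIs it was -0.15 in endothelial cells, -0.10 in Astrocytes_1, 0.43 in Astrocytes_2 and -0.38 in oligodendrocytes, and with no filter on low counts 0.011 in pericytes and -0.014 in OPCs. The median over all genes tested differed from 0 by less than 0.01 in each of these subtypes. The values of WT and Fmr1-KO mice did not overlap for 3 of 15 members in pericytes (Lama4, Lamc1 and Lamc3, named after their values were seen), against 6.62% of all genes. In Astrocytes_2 this held for Lamc1 (7.15% of all genes), and for 0 members in endothelial cells (8.19%), Astrocytes_1 (6.21%), OPCs (6.77%) and oligodendrocytes (9.04%). Lamc3 was at 139, 201 and 179 CPM for WT and 229, 263 and 205 CPM for Fmr1-KO in pericytes, with a log2 fold change of 0.37 ± 0.22 (SE) and an edgeR FDR = 0.996. Fibroblasts could not be fitted, since 2 WT mice and only 1 Fmr1-KO mouse had 10 or more of them.

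**Figure D5:**
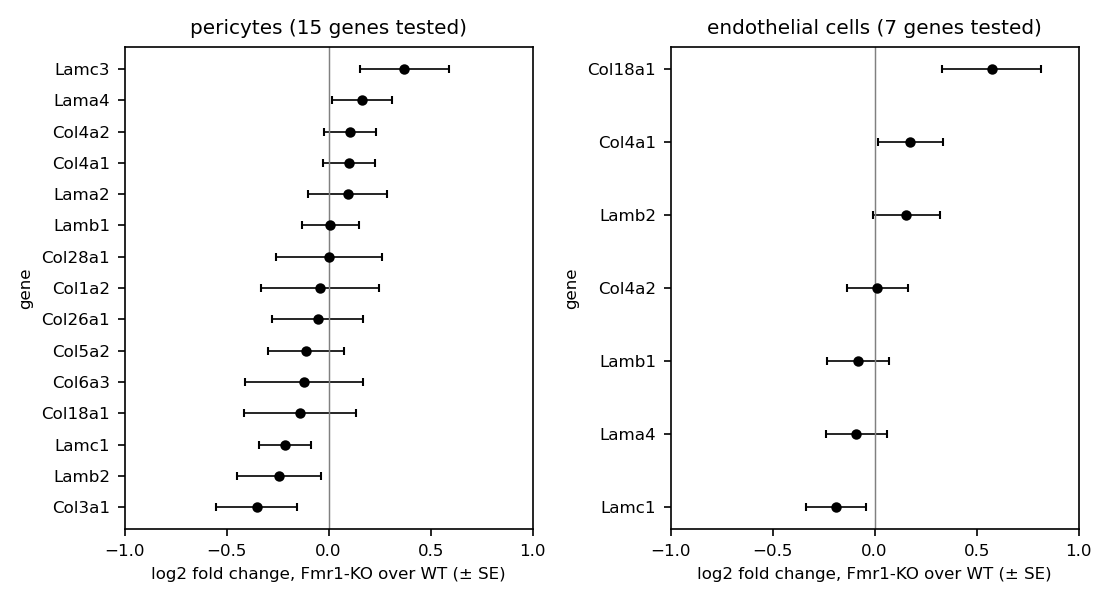
Log2 fold change of Fmr1-KO over WT with its standard error (bars) for the 15 members tested in pericytes and the 7 tested in endothelial cells. Values lie from -0.35 to 0.37 in pericytes and from -0.19 to 0.57 in endothelial cells, where Col18a1 is the highest, and 0 passed the threshold.

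The genotype effect was also compared between pericytes and endothelial cells. Of the 7 members tested in both, 0 differed in an edgeR model that blocked on the mouse and held a term for genotype by subtype, and 0% of the 2606 genes tested did. At an unadjusted p under 0.05 it was 0 members and 2.23% of genes. For Col18a1 the log2 effect in pericytes minus that in endothelial cells was -0.79 ± 0.38 (SE), with FDR = 0.998 in edgeR.

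Genes that act with collagens and laminins were described by lists of other basement membrane genes, collagen synthesis, receptors, proteases with their inhibitors, and proteoglycans that bind collagen. Sparc, which binds collagen outside the cell, was at 8113 ± 1179 CPM in endothelial cells (SD, n = 6), 6815 ± 1068 CPM in fibroblasts (SD, n = 3) and 5679 ± 570.2 CPM in pericytes (SD, n = 6). Among glia Sparc was highest in microglia, at 3640 ± 494 CPM (SD, n = 6), and its means were 238 to 1554 CPM in the others. Serpinh1, the collagen chaperone of the endoplasmic reticulum, was at 2377 ± 78.6 CPM in fibroblasts, 1492 ± 117 CPM in pericytes and 1427 ± 169.6 CPM in endothelial cells. Bgn, a proteoglycan that binds collagen, was at 1584 ± 57 CPM in fibroblasts, 1515 ± 271 CPM in pericytes and 316 ± 67.5 CPM in endothelial cells. Itgb1, the beta subunit shared by the collagen and laminin integrins, was at 1385 ± 200.1 CPM in pericytes, 801 ± 161 CPM in endothelial cells and 634 ± 75 CPM in fibroblasts.

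None of these genes was called changed between genotypes in any subtype. In endothelial cells the test covered 6 of 6 other basement membrane genes, 12 of 23 of collagen synthesis, 4 of 13 receptors, 3 of 9 proteases and inhibitors and 1 of 7 proteoglycans. At an unadjusted p under 0.05 these numbered 1, 2, 1, 1 and 1 there, against the 11% of all genes given above. Itga6, a laminin receptor subunit, had a log2 fold change of -0.87 (edgeR FDR = 0.193). Timp3, an inhibitor of matrix proteases, had -0.64 (edgeR FDR = 0.325), and Hspg2, which encodes perlecan, had -0.34 (edgeR FDR = 0.397). Bgn had 0.59 (edgeR FDR = 0.226) and Plod1, a lysyl hydroxylase of collagen, 0.48 (edgeR FDR = 0.377). Ppib, a prolyl isomerase of collagen folding, had -0.32 (edgeR FDR = 0.404). In pericytes 6, 14, 7, 5 and 2 genes of the same lists were tested, and 0 passed the unadjusted level. Elsewhere the level was passed by 2 of 26 genes of these lists in Astrocytes_1, 2 of 22 in Astrocytes_2 and 1 of 17 in oligodendrocytes, against the 4.72%, 4.26% and 4.4% of all genes given above. These were Fkbp10 (-0.23), a collagen chaperone, with the protease Mmp14 (0.30) in Astrocytes_1, the cross-linking enzyme Loxl2 (0.54) and Itga6 (-0.70) in Astrocytes_2, and the lysyl hydroxylase Plod2 (0.75) in oligodendrocytes, all with an edgeR FDR from 0.818 to 0.996.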

How the data were processed

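Single cells of the cortex were profiled with InDrop in 3 WT and 3 Fmr1-KO mice. Per the labels and the paper's methods, the authors aligned reads to mm10 with TopHat2 2.0.14, counted UMIs per RefSeq gene with ESAT without using reads of several positions, and removed barcodes under 700 UMIs (53 cells of the table were below). They deposited raw UMI counts per cell and an annotation of mouse, cluster, subtype, doublets and, as a ratio, a size factor that was not used here. All columns of cells were mapped to a mouse by the annotation.

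UMI counts were summed per mouse and subtype without the 1113 doublets, for mice with at least 10 cells, and scaled to CPM. Genotypes were compared with edgeR 4.0.16 (R 4.3.3; quasi-likelihood test, TMM, bead version as covariate) for genes detected in 15% or more of the cells, with Benjamini-Hochberg adjustment over all genes tested in a subtype, and called at FDR under 0.01 and at least 1.15-fold. The test was checked on simulated data. Alternatives were DESeq2 1.42.0, other filters, scalings and thresholds, cells thinned to 700 UMIs, mice left out in turn, and 1 cell per barcode and mouse, which was added after seeing the data. Levels were tabulated with Python 3.11.15, numpy 2.4.6 and pandas 2.3.3. Floors and intervals cover counting error only. Where nothing says that mice came from separate litters, p-values measure only the spread between these mice.

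The members and all lists were chosen with earlier results of these data known. The genes named were the 5 highest members of each of the 8 subtypes, all chains of collagens IV and VI, laminin chains of at least 20 CPM, members at FDR under 0.05 or up to 3 per subtype at an unadjusted p under 0.05, Fmr1, and up to 3 genes per partner list. Promoter windows were matched by symbol for 40 of the 55 members.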

Additional observations from a re-analysis of the deposited data

Results flagged for a closer look

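Ependymal cells, the ciliated lining of the ventricles, were outside the comparisons. In pooled UMIs, 3 members had a higher level there than in any of the 8 subtypes compared. Col8a2, a chain of the short-chain collagen VIII, was at 91.7 CPM in the pooled UMIs of ependymal cells (122 UMIs, found in 6 of 6 mice) and at 26.9 CPM in fibroblasts, the next highest. Col4a4 was at 42.1 CPM (56 UMIs, 6 of 6 mice) against 37.7 CPM in Astrocytes_2. This difference was smaller than the SD over mice given above for Astrocytes_2. Lama3, an alpha chain of epithelial laminins, was at 40.6 CPM (54 UMIs, 6 of 6 mice) against 5.80 CPM in microglia. These are pooled values of the 255 ependymal cells, 121 of them from Fmr1-KO 3, without a test.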

How the results depend on the processing

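The number of members called by genotype was 0 in each subtype under all 106 alternative fits, and the difference of genotype effects between pericytes and endothelial cells kept 0 calls under all 10. In microglia 0 members passed the 15% filter, so 0 calls was fixed in advance wherever that filter was kept. At most 0.0423% of all genes tested were called in the main fit of a subtype, so an unchanged 0 says little about the members. Shares of UMIs moved by less than the spread between mice in all but 1 alternative, fibroblasts with no minimum of cells, at 3.66%. Leaving out a mouse, or taking 1 bead version alone in subtypes with 6 mice, could not move the mean by more than that spread. These settings therefore could not show a shift. In oligodendrocytes the share ranged from 0.117% to 0.175% over the alternatives other than leaving out mice. Counts of members higher in every mouse stayed within 1.5 times in 69 of 78 alternatives. With a minimum of 50 CPM, endothelial cells were above fibroblasts for 1 member, and Astrocytes_1 above fibroblasts for 1, above pericytes for 2 and above endothelial cells for 3. With 5 CPM, Astrocytes_1 were above pericytes for 8 and above endothelial cells for 12, and endothelial cells above pericytes for 2. That last count was 1 within bead version 2, and Astrocytes_1 were above fibroblasts for 1 member with cells thinned to 700 UMIs. The median log2 fold change of members over genotype, which rests on 3 to 15 genes, was -0.15 in endothelial cells, 0.43 in Astrocytes_2, 0.40 in OPCs and -0.38 in oligodendrocytes with thinned cells, and -0.014 in OPCs with no filter on low counts. Leaving out each mouse in turn gave -0.20 (without WT 1) to 0.24 (without Fmr1-KO 3) in Astrocytes_1 and 0.12 to 0.34 (without Fmr1-KO 3) in OPCs. Col18a1 in endothelial cells ranged from 0.31 to 0.66 over the other alternatives and kept its side of the threshold in all 15. The replicate numbers were not taken as pairs of mice. Deviations of same-numbered mice correlated at 0.46, -0.28 and 0.53 in endothelial cells. Mice numbered 1 shared a bead version, as did those numbered 3, but not those numbered 2. These correlations therefore cannot decide whether the mice were paired. With the replicate number as a block 0 members were called in each subtype. Doublets could be added back for endothelial cells alone, since the annotation gives most of them no subtype, and no fit was possible in fibroblasts. Where few cells were summed, as in fibroblasts and oligodendrocytes, counting error limits what could be seen. The cause of these shifts was not tested.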
